A study of Mus musculus with 5 samples.

Results

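The genes examined here were *Ihh*, *Ptch1*, *Lrp2*, *Il13ra2*, *Calca*, *Gata2*, *Fst* and *Npl*, which comprise known progesterone targets of the mouse uterine epithelium and the hedgehog ligand and receptor. They were taken by symbol, all 8 were found among the 23420 genes of the count table, and all 8 are annotated as protein-coding. RNA-seq had been performed on the luminal layer of wild-type C57BL/6N uteri in early pregnancy, to follow the epithelium before and after the embryo attaches. Day 1 was the day of the vaginal plug. The 5 libraries came from the morning of day 3, the morning and evening of day 4, and the morning of day 5, when 1 library was taken from the layer around the attached embryo (the embryo-side library) and 1 from the layer at a distance from it (the distant library). The labels also name the pole of the uterus, M (mesometrial) for the distant library and AM (anti-mesometrial) for the embryo-side library. Distance from the embryo and pole therefore cannot be told apart in any comparison of the day 5 libraries. The age of the mice and any pooling of animals for these libraries are not given in the sources used here. Each condition had 1 library, so no difference has a replicate check and each change holds for these libraries only.

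Progesterone from the corpus luteum acts through its nuclear receptor, Pgr, and prepares the uterus for the blastocyst. In the luminal epithelium it induces Indian hedgehog, a secreted ligand that binds the receptor Patched on stromal cells, which relieves the inhibition of Smoothened and lets Gli transcription factors act on targets such as *Ptch1* and *Gli1* themselves. The transcription factor Gata2 acts with Pgr in the epithelium, and other progesterone-responsive epithelial genes encode endocytic receptors, cytokine receptors, peptide hormones and metabolic enzymes.

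The total counts were 15334674 on day 3, 19529491 and 16560409 on the morning and evening of day 4, and 16702914 and 19136032 in the distant and embryo-side libraries. Levels are given as CPM (counts per 1000000 counted, scaled by TMM) or, where genes are compared with each other, as RPKM, which also divides by gene length. A change is the log2 CPM of 1 library minus that of another, after a prior count of 2 was added, and brackets hold its 95% interval, from the exact Clopper-Pearson method on the pair of counts. Where a change is also printed as a fold, the fold is the ratio of CPM without the prior count. At low counts that fold is larger than the log2 change gives. Reads amplified by PCR are not independent molecules, so these intervals and the floor of 3 counts cover counting error only. A gene is said to rise or fall where its change passed 2-fold. Numbers of genes past 2-fold are taken over those that averaged 1 CPM or more across the libraries, which were 12918 genes of the table and 7 of the 8 genes. The exception was *Calca*.

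From day 3 to the morning of day 4, *Ptch1*, *Il13ra2* and *Lrp2* rose, which is 3 of 7 genes beside 7.96% of all genes kept, and 0 of 7 fell beside 11%. From the morning to the evening of day 4, *Ihh* and *Fst* rose, 2 of 7 beside 7.15% of all genes, and *Gata2* and *Npl* fell, 2 of 7 beside 6.96%. In the distant library compared with the morning of day 4, *Ihh* and *Fst* were the 2 of 7 genes that rose, beside 14.6% of all genes, and *Gata2*, *Lrp2* and *Npl* were the 3 of 7 that fell, beside 14.5%. In the embryo-side library, *Ihh* and *Fst* were again higher than on the morning of day 4, 2 of 7 beside 20.9%, and the other 5 of the 7 genes were lower, beside 22.4%. The library of the morning of day 4 is shared by these 4 comparisons. Between the day 5 libraries, *Ihh* and *Fst* were higher in the embryo-side library, 2 of 7 beside 13.7%, and *Ptch1*, *Lrp2* and *Il13ra2* were lower, 3 of 7 beside 14.5%. In bulk RNA, fewer cells of a type and less RNA per cell cannot be told apart, and nothing is read from the gap between 7 chosen genes and the whole table. Thus, known progesterone targets did not move as a group on day 5, since *Ihh* rose while *Gata2*, *Lrp2* and *Npl* fell.

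**Figure D1:**
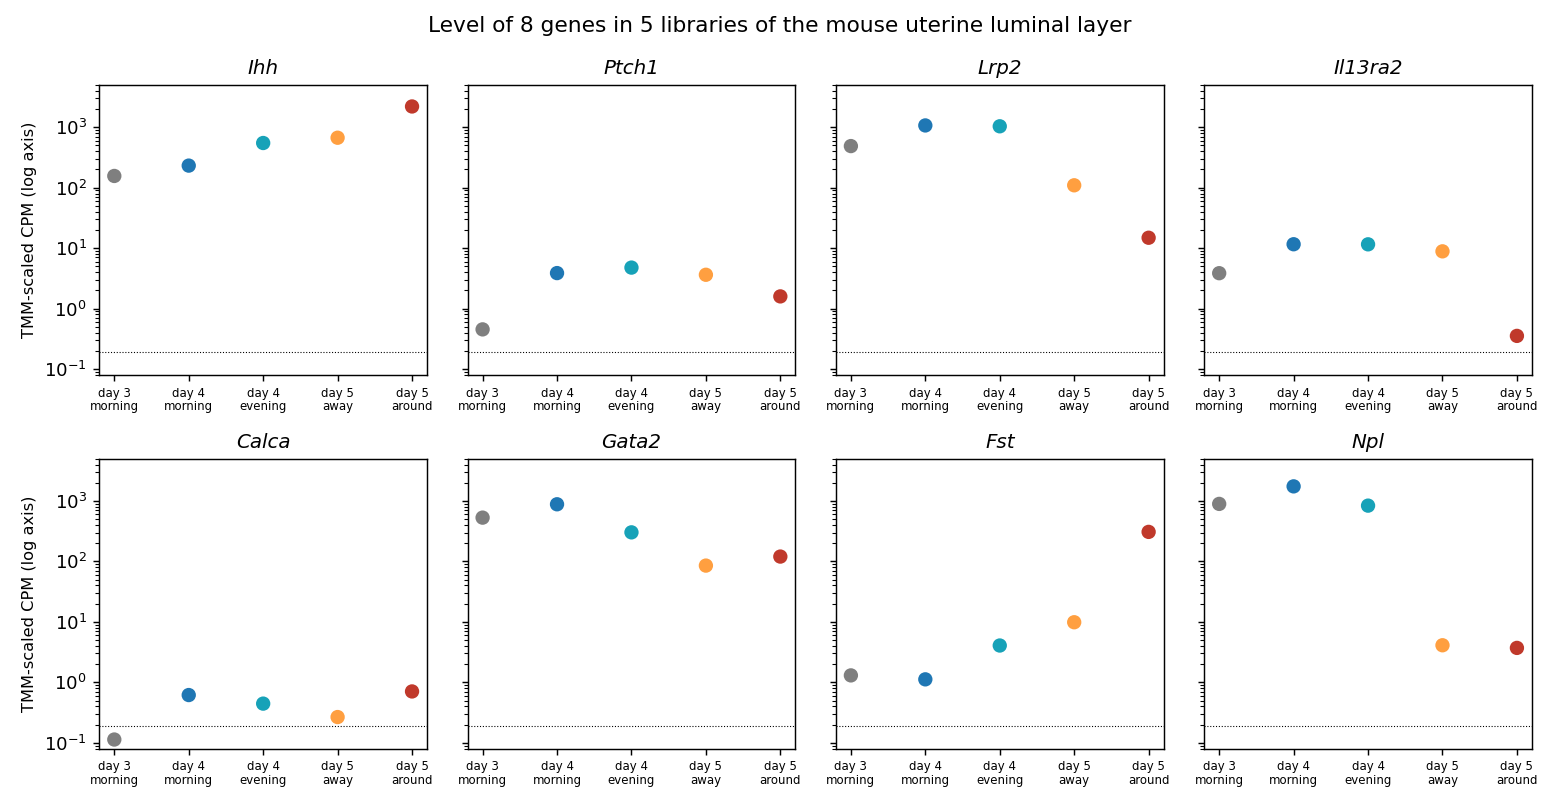
Level of each of the 8 genes in the 5 libraries, as TMM-scaled CPM on a log axis, with 1 point for each library. The dotted line marks 3 counts in the shallowest library after scaling (0.190 CPM), and "away" and "around" refer to the attached embryo. *Ihh* and *Fst* are highest around the embryo, at 2202 and 308 CPM, whereas *Npl* is below 5 CPM in both day 5 libraries.

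Marker genes were read to see which cells the libraries held. The 7 epithelial markers (*Krt8*, *Krt18*, *Krt19*, *Krt7*, *Cdh1*, *Epcam* and *Cldn7*) summed to 4384 CPM on day 3, 4615 and 4508 on the morning and evening of day 4, and 3375 and 6726 in the distant and embryo-side libraries. Each of the 7 was counted in every library, with *Krt8* the most abundant of them on days 3 and 4, *Krt18* in the distant library and *Epcam* in the embryo-side library. *Krt19* nevertheless had 15033, 13708, 6997, 708 and 2732 counts in order of the libraries, and its log2 change from the morning of day 4 was -4.34 [-4.46, -4.24] in the distant library. *Krt8* also fell there, by 1.39 on the log2 scale, [-1.43, -1.35]. The 8 stromal markers summed to 544, 467, 537, 479 and 358 CPM in the same order, with *Col3a1* the most abundant except in the embryo-side library, where *Hand2* was, and none of the 8 was at 0 in any library. Glandular markers were scarce. Of the 6 listed, *Cxcl15* was not matched, and the other 5 summed to 3.85, 4.26, 1.27, 4.10 and 30.9 CPM, with *Prss28* and *Prss29* at 0 in the 3 libraries of days 3 and 4, *Spink3*, the older symbol of *Spink1*, at 0 on day 3, and *Foxa2* and *Lif* at 0 on the evening of day 4. The most abundant of them was *Lif* on day 3 and in the embryo-side library, *Foxa2* and then *Spink3* on day 4, and *Prss29* in the distant library. *Lif* stood at 17.9 CPM in the embryo-side library. Per the paper it is induced on day 5 in stroma near the attached embryo, so there it does not mark glands alone.

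The embryo-side library also carried transcripts of other cells. The 7 embryo and trophoblast markers summed to 4.75, 12.7, 7.62 and 6.13 CPM in the first 4 libraries and to 101 CPM in the embryo-side library, where *Tfap2c* was the most abundant at 673 counts. *Pou5f1*, *Nanog* and *Cdx2*, which mark the blastocyst, were at 0 counts in the other 4 libraries and at 68, 10 and 22 counts in the embryo-side library. *Sox2* was at 0 on the evening of day 4 and in the distant library, and *Elf5* was the most abundant of the 7 on days 3 and 4. The 5 smooth muscle markers summed to 7.81, 18.4, 19.9, 27.4 and 389 CPM in order of the libraries, mostly through *Des*, which had 6090 counts in the embryo-side library and is also known in decidualizing stroma. *Actg2* was at 0 in both libraries of day 4 and *Cnn1* at 0 on its morning. Endothelial markers summed to 11.8, 25.3, 30.1, 44.4 and 96.8 CPM, with *Kdr* the most abundant on day 3, *Cdh5* on day 4 and in the embryo-side library, and *Tek* in the distant library. The 5 leukocyte markers summed to 493, 952, 677, 245 and 102 CPM, with *Cd14* the most abundant in each library. *Cd14* alone stood at 457, 905, 636, 200 and 55.2 CPM, so the course of this sum was mostly that of 1 gene. No endothelial or leukocyte marker was at 0 in any library. Of the markers that passed the filter, 3 of 3 embryo, 4 of 4 smooth muscle, 3 of 4 glandular, 2 of 8 stromal, 2 of 5 endothelial, 1 of 5 leukocyte and 4 of 7 epithelial markers were higher past 2-fold in the embryo-side library than on the morning of day 4. Lower were 0, 0, 1, 4, 1, 4 and 1 of them. Without the embryo-side library, *Prss29*, *Spink3*, *Lif*, *Cnn1* and *Myh11* did not average 1 CPM. Their place among the markers higher in that library was thus largely set by the filter. For the distant library, 1 of 3 embryo, 3 of 4 smooth muscle, 1 of 4 glandular, 1 of 8 stromal, 1 of 5 endothelial, 0 of 5 leukocyte and 0 of 7 epithelial markers were higher than on the morning of day 4, and 2, 0, 2, 0, 0, 1 and 2 were lower. With library totals 2 glandular and 2 stromal markers were higher there, and 1 embryo marker lower. Of all genes kept, 20.9% were higher and 22.4% lower in the embryo-side library than on the morning of day 4. In the distant library 14.6% were higher and 14.5% lower. Fewer of all genes thus passed 2-fold there as well, and nothing is read from the number of markers that did. The stromal sum was nearly unchanged from the morning of day 4 to the distant library. The part of these markers in the changes of the 8 genes was not tested.

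**Figure D2:**
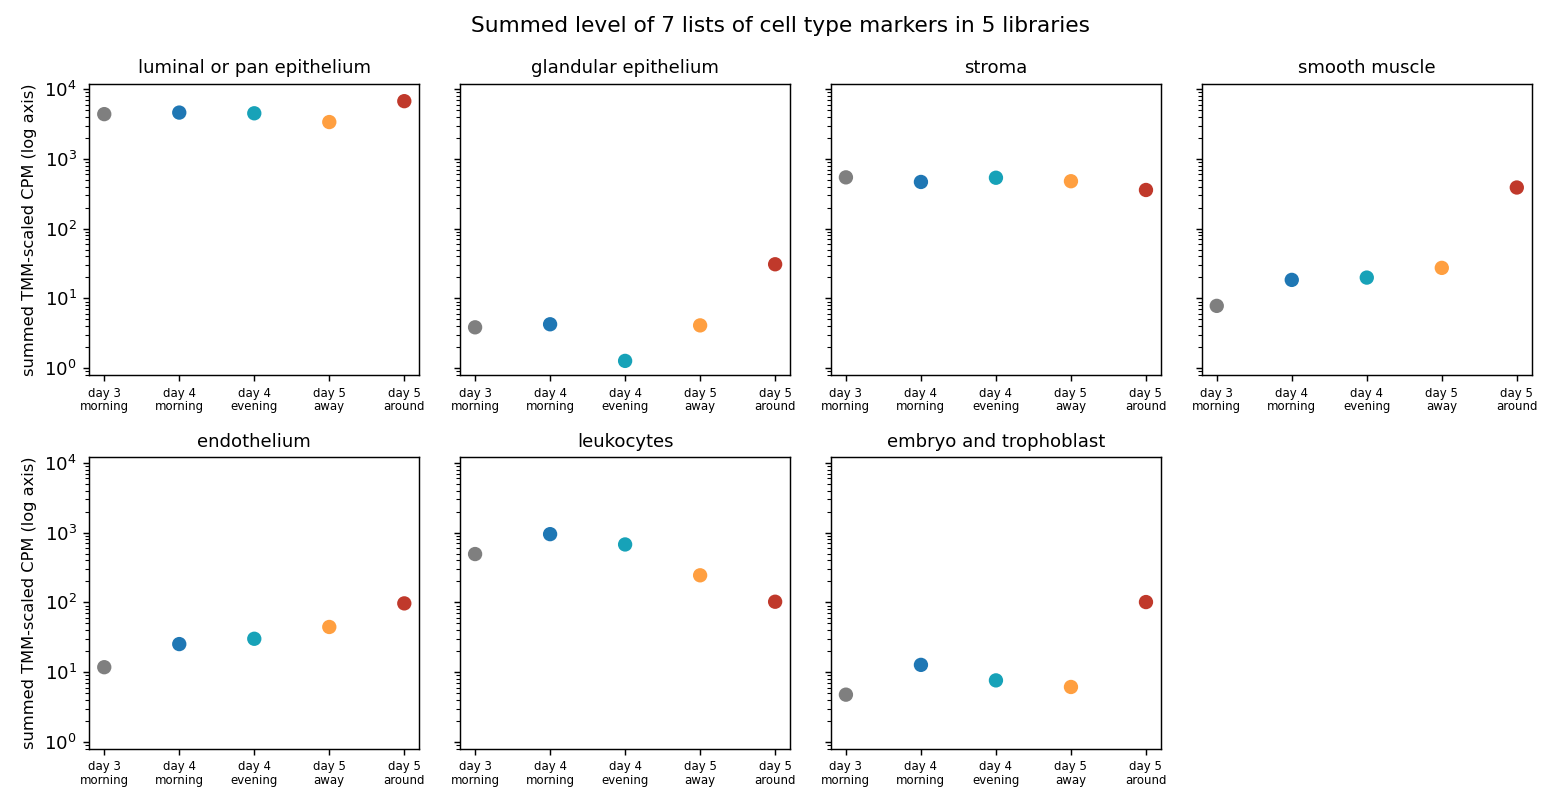
Summed level of 7 lists of cell type markers in the 5 libraries, as TMM-scaled CPM on a log axis, with 1 point for each library. Embryo and trophoblast markers reach 101 CPM around the attached embryo, while epithelial markers lie between 3375 and 6726 CPM in all 5 libraries.

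*Ihh* encodes the hedgehog ligand of the uterine epithelium (GRCm38/mm10 chr1:74945318-74951651, minus strand). Its counts were 2759 on day 3, 4135 and 8627 on the morning and evening of day 4, and 12567 and 37399 in the distant and embryo-side libraries. The level was higher at each step of this order, every neighbouring pair in it differed beyond counting error, and the last pair are 2 positions on the morning of day 5. The log2 change was 0.57 [0.50, 0.64] from day 3 to the morning of day 4 (0.23 with library totals) and 1.24 [1.19, 1.30] from the morning to the evening of day 4. From the evening of day 4 to the distant library the difference of *Ihh* was 0.29 [0.25, 0.33], or 0.53 with library totals, so that most of its rise in the distant library, 1.53 [1.48, 1.58] from the morning of day 4, was already present on the evening of day 4. In the embryo-side library *Ihh* was 9.51-fold higher than on the morning of day 4 (3.25 [3.20, 3.30]) and 3.29-fold higher than in the distant library (1.72 [1.69, 1.75]). Per length, *Ihh* was the 56th most abundant of the 12918 genes kept in the embryo-side library, at 901 RPKM, and the 1149th on day 3, at 63.9 RPKM.

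*Ptch1*, which encodes the hedgehog receptor and is itself a hedgehog target (chr13:63511533-63565520, minus strand), was scarce in this layer. It had 8 counts on day 3, 69 and 75 on the morning and evening of day 4, and 68 and 27 in the distant and embryo-side libraries. The 3 libraries from the morning of day 4 to the distant library could not be separated by counting error, with day 3 below them and the embryo-side library in between. From day 3 to the morning of day 4 *Ptch1* rose by 2.81 [2.03, 4.36] on the log2 scale, whereas on the evening of day 4 it differed from the morning by 0.29 [-0.19, 0.79]. In the distant library the difference from the morning of day 4 was -0.09 [-0.60, 0.41], and library totals turned it to 0.20. In the embryo-side library *Ptch1* was lower, with a log2 change of -1.22 [-1.98, -0.62] from the morning of day 4 and of -1.13 [-1.89, -0.53] from the distant library. *Ihh* was highest in the embryo-side library. The rise and the falls of *Ptch1* passed 2-fold with every CPM setting tried and not as log2(RPKM + 1). Per length, *Ihh* exceeded *Ptch1* 607-fold on day 3, 106-fold on the morning of day 4, 203-fold on the evening of day 4, 326-fold in the distant library and 2440-fold in the embryo-side library. Of the 8 stromal markers, *Col1a2*, *Col3a1*, *Dcn* and *Lum* were lower past 2-fold in the embryo-side library than in the distant library, and *Hand2* was higher. *Vim*, *Pdgfra* and *Col1a1* did not pass 2-fold between them, the last with 458 and 796 counts. The part of these markers in the lower *Ptch1* was not tested.

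Of 23 genes of the hedgehog pathway, all were in the table and 15 passed the filter, *Ihh* and *Ptch1* among them. The other ligands were nearly undetected, with *Dhh* at 0 counts in every library and *Shh* at 1 count on the evening of day 4 and 0 elsewhere. *Ihh* was thus the hedgehog ligand gene with measurable transcript. In the distant library 5 of the 15 genes rose from the morning of day 4, beside 14.6% of all genes kept. In the same comparison 0 fell, beside 14.5%. The median log2 change was 0.77 beside -0.01 over all genes kept, whereas 8 rose with library totals and 3 as log2(RPKM + 1). In the embryo-side library 5 rose, beside 20.9%, and 2 fell, beside 22.4%. The median was 0.38 beside -0.02, and 3 rose and 0 fell as log2(RPKM + 1). Between the day 5 libraries 2 were higher in the embryo-side library, beside 13.7%, and 2 lower, beside 14.5%. The median was 0.19 beside -0.02. Library totals gave 2 and 5 there and turned the median to -0.14, and as log2(RPKM + 1) 0 were lower. Earlier, 5 rose from day 3 to the morning of day 4, beside 7.96%, and 1 fell, beside 11% (median 0.13 beside 0.04). Library totals gave 2 and 1 and turned the median to -0.20, and as log2(RPKM + 1) 0 passed 2-fold. From the morning to the evening of day 4, 3 rose, beside 7.15%, and 4 fell, beside 6.96%. The median was 0.49, and 1 rose and 0 fell as log2(RPKM + 1). These shares of all genes kept also stand beside the numbers of the other gene lists below. Nothing is read from the gap between a list and its share.

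Genes for the processing and release of the ligand were chosen for naming after their values were seen. They did not share a direction in the distant library. *Disp1*, whose product frees lipid-modified hedgehog from the cell, had 177, 196, 291, 612 and 634 counts in order of the libraries, and rose by 1.56 [1.34, 1.81] in the distant library and by 1.76 in the embryo-side library, both from the morning of day 4. *Hhat*, which encodes the acyltransferase that adds palmitate to the ligand, had 63, 63, 14, 137 and 146 counts and rose by 1.03 [0.61, 1.50] and 1.26 [0.85, 1.74] in the same comparisons, which fell short of 2-fold as log2(RPKM + 1) (0.67 and 0.85). *Scube1*, a member of the family that helps release the ligand, had 205, 188, 217, 129 and 580 counts. Its log2 difference from the morning of day 4 was -0.61 [-0.95, -0.28] in the distant library, short of 2-fold. In the embryo-side library *Scube1* rose from that morning by 1.69 [1.46, 1.94], as *Disp1* and *Hhat* did. Between the day 5 libraries its difference was 2.29 [2.04, 2.60], higher in the embryo-side library. *Scube2*, of the same family, did not pass the filter and had 19, 23, 11, 1 and 1 counts, scarce in both day 5 libraries, and *Scube3* had at most 2.

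On the receiving side the levels were low. *Smo* (Smoothened) had 616, 286, 357, 857 and 414 counts, fell by 1.12 on the log2 scale from day 3 to the morning of day 4 (-0.96 as log2(RPKM + 1)), and rose by 1.50 [1.32, 1.71] from the morning of day 4 to the distant library. *Gli1*, a sensitive hedgehog target, had 35 counts on day 3, 54 and 73 on the morning and evening of day 4, and 126 and 34 in the distant and embryo-side libraries. *Gli1* thus was higher in the distant library than on the morning of day 4 (1.12 [0.68, 1.64]) and lower in the embryo-side library than in the distant library (-1.69 [-2.34, -1.19]), both short of 2-fold as log2(RPKM + 1) (0.63 and -0.87). *Gli3* and *Gli2* ranged from 60 to 135 and from 8 to 78 counts.

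**Figure D3:**
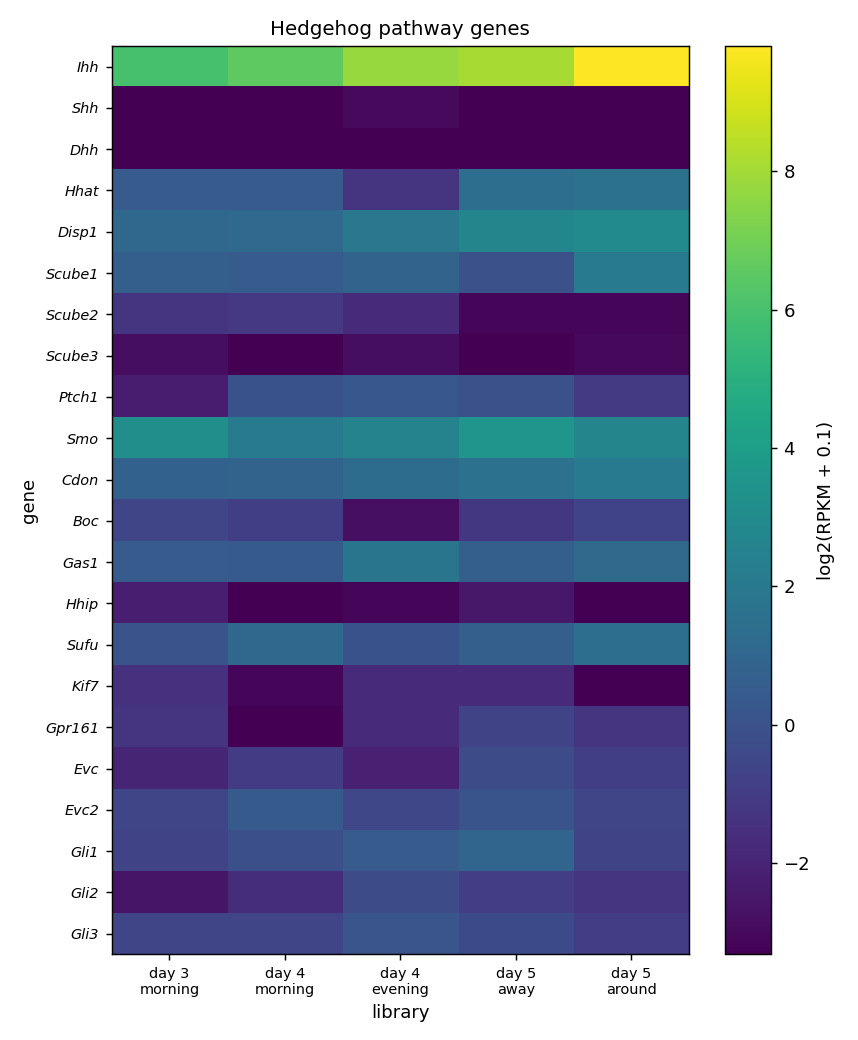
Level of hedgehog pathway genes (vertical axis) in the 5 libraries (horizontal axis), coloured by log2(RPKM + 0.1). *Ihh* stands far above the other genes shown, at 901 RPKM around the embryo, while *Ptch1* does not exceed 1.11 RPKM in any library.

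Genes known in the stroma as targets of epithelial Ihh or of progesterone were read next. All 4 passed the filter. Relative to the morning of day 4, 3 rose and 0 fell in the distant library (median 1.27 beside -0.01), or 1 and 0 as log2(RPKM + 1), and 2 rose and 0 fell in the embryo-side library (median 1.87 beside -0.02). None of the 4 passed 2-fold from day 3 to the morning of day 4 (median 0.20, which library totals turned to -0.13) or from there to the evening (0.55). *Nr2f2*, which encodes COUP-TFII, the mediator of Ihh in the stroma, had 2539, 3051, 2358, 1916 and 1717 counts and passed 2-fold in no comparison. *Bmp2*, needed for decidualization, rose by 1.49 [1.04, 2.05] in the distant library (0.97 as log2(RPKM + 1)) and by 3.98 [3.61, 4.50] in the embryo-side library, from 46 counts on the morning of day 4 to 140 and 720. *Hand2*, a progesterone-induced transcription factor of the stroma, had 70, 79, 102, 389 and 2282 counts. It is also among the stromal markers read above, and the part of stromal content in its rise was not tested. *Vcan* (versican) was lower in the embryo-side library than in the distant library, with 178 and 487 counts, so that between the day 5 libraries 2 of the 4 were higher and 1 lower in the embryo-side library (median 1.24), or 2 and 0 as log2(RPKM + 1).

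*Gata2* encodes the zinc finger transcription factor that acts with Pgr (chr6:88198664-88207032, plus strand). Its counts were 9360 on day 3, 15732 and 4762 on the morning and evening of day 4, and 1600 and 2041 in the distant and embryo-side libraries. The level was highest on the morning of day 4, and all neighbours in the order of levels differed beyond counting error. It fell by 1.54 on the log2 scale from the morning to the evening of day 4, [-1.59, -1.50], before either day 5 library. Compared with that morning the change was -3.37 [-3.44, -3.29] in the distant library and -2.87 [-2.94, -2.81] in the embryo-side library. *Gata2* was the only one of the 7 genes kept that fell from the morning of day 4 and was higher in the embryo-side library than in the distant library beyond counting error, by 0.49 [0.40, 0.59], which library totals lowered to 0.15. Among 7 other Gata factors and their cofactors, 3 passed the filter. Per length, *Gata2* stood at 272 RPKM on the morning of day 4, beside 3.39 RPKM for *Zfpm1*, which encodes the cofactor Fog1 and was the most abundant of the 7. *Gata3* and *Gata4*, which are expressed in trophoblast and primitive endoderm, had 5 and 0 counts on day 3, 6 and 0 on the morning of day 4, 8 and 0 on its evening, 23 and 0 in the distant library, and 262 and 54 in the embryo-side library. Of the 3 genes kept, 0 passed 2-fold from day 3 to the morning of day 4 (median 0.18) and 1 fell by the evening (-0.49). With library totals 1 fell from day 3 to the morning of day 4 (-0.06), and with a prior count of 0.5, 1 rose. In the distant library 1 rose and 1 fell from the morning of day 4 (0.39), of which library totals left 1 and 0 and log2(RPKM + 1) left 0 and 0. In the embryo-side library 2 rose (2.84), which were also higher than in the distant library (2.44). These were *Gata3* and *Gata6*, which did not average 1 CPM without the embryo-side library. Their number and the medians there were thus largely set by the filter.

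*Lrp2* encodes megalin, a large endocytic receptor of absorptive epithelia (chr2:69424335-69586067, minus strand). It had 8608 counts on day 3, 19086 and 16302 on the morning and evening of day 4, and 2054 and 252 in the distant and embryo-side libraries. The morning and evening of day 4 were thus highest, and both day 5 libraries were below day 3. From day 3 to the morning of day 4 *Lrp2* rose by 1.13 [1.10, 1.17] on the log2 scale, which fell short of 2-fold with library totals (0.80). On the evening of day 4 it differed from the morning by -0.05 [-0.08, -0.02], and library totals gave 0.01. It was then, relative to the morning of day 4, 9.77-fold lower in the distant library (-3.29 [-3.35, -3.22]) and 72-fold lower in the embryo-side library (-6.16 [-6.36, -5.99]). Hence *Gata2* had fallen by the evening of day 4, when *Lrp2* had not.

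Partners of megalin did not share a direction. Of 8 listed, 7 passed the filter, and from the morning of day 4, 3 rose and 2 fell in the distant library (median 0.84), and 5 rose and 2 fell in the embryo-side library (median 2.55), where 1 fell with DESeq2 size factors. *Lrpap1*, which encodes the chaperone that escorts megalin to the surface, had 6550, 17365, 12794, 1514 and 852 counts in order of the libraries. It rose from day 3 to the morning of day 4 by 1.39 [1.35, 1.43] and changed from the morning of day 4 by -3.59 [-3.67, -3.52] in the distant library and -4.27 [-4.38, -4.18] in the embryo-side library, in the same directions as *Lrp2*. *Dab2*, an adaptor of megalin endocytosis, also fell from the morning of day 4, with changes of -1.63 [-1.85, -1.44] in the distant and -1.02 [-1.21, -0.84] in the embryo-side library, the latter short of 2-fold with DESeq2 size factors (-0.99) and as log2(RPKM + 1) (-0.89). *Cubn* and *Amn*, whose products form the coreceptor cubam, had 9 and 3 counts on day 3, 13 and 0 on the morning of day 4, 60 and 0 on its evening, 8 and 0 in the distant library, and 105 and 71 in the embryo-side library. *Cubn* had thus risen by the evening of day 4, by 2.22 [1.51, 3.38], short of 2-fold as log2(RPKM + 1) (0.33). The embryo-side library also held embryo transcripts, and their part in the higher levels of this list there was not tested. Earlier, 2 of the 7 rose and 1 fell from day 3 to the morning of day 4 (median 0.23, or -0.10 with library totals), 3 rose and 0 fell on the evening of day 4 (0.83), or 1 and 0 as log2(RPKM + 1), and between the day 5 libraries 3 were higher and 0 lower in the embryo-side library (0.61). Library totals gave 2 and 1 between the day 5 libraries, and log2(RPKM + 1) gave 1 and 0.

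*Il13ra2* encodes the decoy receptor of interleukin 13 (chrX:147383478-147403832, minus strand). Its counts were 68 on day 3, 207 and 182 on the morning and evening of day 4, and 166 and 6 in the distant and embryo-side libraries. The day 4 libraries could not be separated by counting error, and the embryo-side library was far below the other 4. It rose from day 3 to the morning of day 4 by 1.56 [1.19, 2.01]. In the distant library the change from the morning of day 4 was -0.39 [-0.69, -0.09], short of 2-fold and -0.09 with library totals, whereas in the embryo-side library it was -4.64 [-6.50, -3.89]. Between the day 5 libraries the log2 change of *Il13ra2* was -4.26 [-6.11, -3.49], lower in the embryo-side library, and 38 of the 12918 genes kept fell further there. As a ratio of CPM without the prior count it was 25-fold lower.

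The ligand *Il13* was at 0 counts in every library, and *Il4* had at most 2. In the embryo-side library a gene of the signalling receptor rose where the decoy fell. *Il13ra1*, which binds both ligands with *Il4ra*, had 1079, 527, 2212, 2614 and 9916 counts, and rose from the morning of day 4 by 2.25 [2.11, 2.39] on the evening of day 4, 2.23 [2.10, 2.38] in the distant library and 4.30 [4.18, 4.44] in the embryo-side library. *Il4ra* had 246, 401, 711, 425 and 2473 counts. Of the 3 genes of this list that passed the filter among 5, 0 rose and 1 fell from day 3 to the morning of day 4, 2 rose on the evening of day 4, 1 rose in the distant library, and 2 rose and 1 fell in the embryo-side library. As log2(RPKM + 1) neither of these falls passed 2-fold, and 1 gene rose on the evening of day 4. The medians in that order were 0.42, 1.00, 0.22 and 2.69, and between the day 5 libraries, with 2 genes higher and 1 lower in the embryo-side library, 2.07.

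*Npl* encodes N-acetylneuraminate pyruvate lyase, which splits free sialic acid (chr1:153503016-153549714, minus strand). Per length it was the most abundant of the 8 genes on days 3 and 4, at 637 RPKM on day 3, 1241 on the morning of day 4 and 596 on the evening of day 4, against 2.92 RPKM in the distant library and 2.64 in the embryo-side library. It ranked 27th of 12918 genes on the morning of day 4 and 8783rd in the distant library. *Npl* differed by 0.96 [0.94, 0.99] between day 3 and the morning of day 4 (0.63 with library totals) and fell from the morning to the evening of day 4 by 1.06 on the log2 scale, [-1.09, -1.03]. From the evening of day 4 to day 5 it was 204-fold lower in the distant library and 226-fold lower in the embryo-side library. The day 5 libraries could not be separated, with a difference of -0.14 [-0.65, 0.35], or -0.47 with library totals. Unlike *Lrp2* and *Il13ra2*, *Npl* thus did not differ between them beyond counting error. From the morning of day 4 to the distant library *Npl* changed by -8.69, and 4 of the 12918 genes kept fell further.

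Other genes of sialic acid metabolism moved in both directions. Of 12 listed, 11 passed the filter, and from the morning of day 4, 2 rose and 3 fell in the distant library (median -0.51), or 4 and 2 with library totals, and 3 rose and 4 fell in the embryo-side library (median -0.36), or 3 and 2 as log2(RPKM + 1). *Neu1*, which encodes the lysosomal sialidase, had 1784, 1388, 1321, 5044 and 5684 counts and rose by 1.79 [1.70, 1.88] in the distant library and by 2.10 [2.02, 2.19] in the embryo-side library. *Gne*, which encodes the enzyme that starts the synthesis of sialic acid, had 198, 192, 213, 351 and 36 counts, with a difference of -3.07 [-3.68, -2.64] between the day 5 libraries. Earlier 1 rose and 0 fell from day 3 to the morning of day 4 (0.21), or 0 and 0 with library totals (-0.11), 0 rose and 1 fell on the evening of day 4 (0.06), and between the day 5 libraries 2 were higher and 2 lower in the embryo-side library (-0.10).

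*Fst* encodes follistatin, a secreted protein that binds and blocks activins (chr13:114452262-114458730, minus strand). It had 23 counts on day 3, 20 and 64 on the morning and evening of day 4, and 185 and 5226 in the distant and embryo-side libraries. The mornings of days 3 and 4 could not be separated, the evening of day 4 and the distant library were each higher than the library before, and the embryo-side library was the highest. *Fst* rose from the morning of day 4 by 1.76 [1.12, 2.66] on the evening of day 4, short of 2-fold as log2(RPKM + 1). From that morning it rose by 3.01 [2.47, 3.88] in the distant library and by 7.96 [7.47, 8.81] in the embryo-side library. The latter was 275-fold as a ratio of CPM without the prior count. Between the day 5 libraries it was 31.2-fold higher in the embryo-side library (4.95 [4.75, 5.18]), where 138 of the 12918 genes kept rose further. *Fst* is known in decidualizing stroma as well as in epithelium, and *Hand2*, *Bmp2* and *Des* were also highest in that library, whereas 4 of the 8 stromal markers, *Col3a1* and *Dcn* among them, were lowest in it. Their part in the rise was not tested.

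The activin subunit genes were highest in the same library. *Inhba* had 16, 2, 2, 3 and 694 counts, and its log2 difference from the morning of day 4 to the embryo-side library was 7.50 [6.65, 11.56]. Without that library *Inhba* did not average 1 CPM, so its place among the higher genes there was largely set by the filter. *Inhbb* had 0, 1, 0, 99 and 1063 counts, with a difference between the day 5 libraries of 3.54 [3.27, 3.88]. *Acvr2a*, which encodes an activin receptor, had 837, 892, 628, 460 and 376 counts and changed from the morning of day 4 by -1.02 [-1.19, -0.86] in the distant library and by -1.17 in the embryo-side library. The former fell short of 2-fold with library totals (-0.73) and as log2(RPKM + 1) (-0.88), and on that scale the latter lay just inside 2-fold. Of 8 genes of this axis 6 passed the filter, and from the morning of day 4, 1 rose and 1 fell in the distant library (median 0.47, or 0.33 with counts under the floor set to 3), which library totals made 2 and 0, and 2 rose and 1 fell in the embryo-side library (median 0.59). From day 3 to the morning of day 4, 0 rose and 1 fell (median 0.35, or 0.10 with the floor), on the evening of day 4, 0 passed 2-fold (-0.12, or 0.00 with the floor), and between the day 5 libraries 2 were higher in the embryo-side library (0.40).

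*Calca* encodes calcitonin and, by alternative splicing, calcitonin gene-related peptide, which counts per gene do not separate (chr7:114631478-114636357, minus strand). It was close to the floor, with 2 counts on day 3, 11 and 7 on the morning and evening of day 4, and 5 and 12 in the distant and embryo-side libraries. The ratio of the morning of day 4 to day 3 was 5.44-fold, with an interval on the log2 scale of 0.25 to 5.66. It was 3.63-fold with day 3 set to the floor of 3 counts, and the log2 change was 1.68. No neighbours in the order of the 5 levels differed beyond counting error, and a change of *Calca* after the morning of day 4 was not detectable at this depth. Among 9 other genes of the calcitonin peptide axis 7 passed the filter. *Calcr*, which encodes the calcitonin receptor, was at 0 counts in every library. *Calcrl*, which encodes the receptor of calcitonin gene-related peptide and adrenomedullin, had 576, 374, 661, 1139 and 89 counts, and *Adm* (adrenomedullin) had 46, 42, 201, 170 and 2667. Between the day 5 libraries *Calcrl* was lower in the embryo-side library (-3.51 [-3.86, -3.22]) and *Adm* higher (4.10 [3.89, 4.35]). *Adm2*, which is among the 7, did not average 1 CPM without the embryo-side library. Its place among the higher genes there was thus largely set by the filter. Relative to the morning of day 4, 2 of the 7 rose and 1 fell in the distant library (median 0.28), or 3 and 2 with a prior count of 0.5, and 2 rose and 3 fell in the embryo-side library (-0.23). From day 3 to the morning of day 4, 1 rose and 1 fell (-0.14), on the evening of day 4, 2 rose and 2 fell (0.37), or 1 and 0 as log2(RPKM + 1), and between the day 5 libraries 2 were higher and 3 lower in the embryo-side library (0.22, or -0.10 with library totals).

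A list of 14 other progesterone-responsive genes, all kept, was followed beside the 8. From day 3 to the morning of day 4, 7 rose and 0 fell, with a median log2 change of 0.97 beside 0.04 over all genes. With library totals 4 rose and 0 fell, with a median of 0.64 beside -0.29, and *Hsd11b2*, *Hdc* and *Alox15* were no longer past 2-fold. On the evening of day 4, 2 rose and 1 fell (median -0.05), or 2 and 0 with library totals (0.01). Relative to the morning of day 4, 1 rose and 5 fell in the distant library (median -0.44 beside -0.01), or 3 and 4 with library totals, and 5 rose and 5 fell in the embryo-side library (median -0.13 beside -0.02). Between the day 5 libraries 5 were higher and 4 lower in the embryo-side library (median -0.18). *Hdc*, which encodes histidine decarboxylase, was like *Lrp2* lowest in the embryo-side library, with 17387, 42092, 35550, 10920 and 1621 counts and changes from the morning of day 4 of -2.02 [-2.05, -1.99] in the distant library and -4.62 [-4.70, -4.55] in the embryo-side library. *Areg* (amphiregulin), a classical epithelial target of progesterone, had 446, 1182, 1004, 662 and 48285 counts. It was lower in the distant library than on the morning of day 4, -0.91 [-1.05, -0.77], and rose in the embryo-side library by 5.42 [5.34, 5.51]. *Irg1*, the older symbol of *Acod1*, had 6549, 16833, 7221, 15194 and 92163 counts. *Cyp26a1*, the 1 gene that rose in the distant library, had 605, 432, 10542, 99164 and 103074 counts. It was the most abundant of the list in both day 5 libraries, and had risen by 4.78 [4.65, 4.93] by the evening of day 4. The list thus held genes that fell in both day 5 libraries and genes that were highest in the embryo-side library. Of all genes kept, 20.9% were higher and 22.4% lower in that library than on the morning of day 4. Nothing is therefore read from the list holding both kinds.

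Of the steroid receptor genes *Pgr*, *Pgrmc1*, *Esr1*, *Esr2* and *Gper1*, 4 passed the filter. *Pgr* stood at 59.2 RPKM on day 3, 24.3 and 20.8 on the morning and evening of day 4, and 3.84 and 5.17 in the distant and embryo-side libraries. Its transcript was therefore highest on day 3, before the levels of *Gata2*, *Lrp2* and *Npl* were highest. *Gper1*, listed under its older symbol *Gpr30*, had 553, 1674, 862, 20 and 24 counts, and like *Npl* it was scarce in both day 5 libraries. Of the 4 genes, 1 rose and 1 fell from day 3 to the morning of day 4 (median 0.36), 0 passed 2-fold on the evening of day 4 (-0.33), 2 fell in the distant library (-1.51) and 2 fell in the embryo-side library (-1.57), and 0 passed 2-fold between the day 5 libraries (0.11). With library totals 1 was lower in the embryo-side library (median -0.21). Of the 5 estrogen-responsive epithelial genes 4 fell from day 3 to the morning of day 4, with a median of -3.02, and the other, *Muc1* (mucin 1), had a log2 difference of -0.70 [-0.80, -0.61]. Among them *Ltf* (lactotransferrin) had 6232, 932, 186, 281 and 874 counts, and *Lcn2* (lipocalin 2) had 481, 58, 305, 1135 and 7123. Relative to the morning of day 4, 2 rose and 2 fell on the evening of day 4 (0.38) and in the distant library (-0.79), 3 rose and 1 fell in the embryo-side library (1.54), and between the day 5 libraries 3 were higher in the embryo-side library (1.77).

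For each of the 7 genes kept, the most similar course over the 5 libraries was sought among the 8868 genes averaging 10 CPM or more, by the root mean square difference of log2 CPM centred on its mean. Nearest to *Ihh* was *Gja1*, which encodes connexin 43, with a difference of 0.15, followed by *Sik1* (0.18) and *Lamc1* (0.23). *Gja1* had 927, 1089, 2489, 3626 and 12841 counts. *Gata2* lay nearest to *Car5b* (0.16), *Pdlim1* (0.17) and *Tmem229b* (0.20), and *Fst* to *Nrgn* (0.22), *Guca2b* (0.52) and *Ptges* (0.57). *Lrp2* was followed by *Rtn1* (0.32), *Sycp3* (0.38) and *Ovgp1* (0.41), the last encoding the oviductal glycoprotein. The nearest genes were *Ankrd29* (0.33), *Tmem132c* (0.38) and *Arhgap18* (0.45) for *Il13ra2*, *Cited4* (0.38), *S100g* (0.40) and *Gtdc2* (0.44) for *Ptch1*, and *Meig1* (0.50), *Ano2* (0.57) and *4833423E24Rik* (0.57) for *Npl*. Among pairs of the 7 genes themselves, *Lrp2* and *Il13ra2* were closest (1.24) and *Fst* and *Npl* farthest apart (6.59). Nearest genes were sought among 8868 and pairs among 7 only, so nothing is read from the gap between these distances.

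Promoters from RefSeq (GRCm38.p6, 250 bases before to 50 after the gene start) were matched for 7 of the 8 genes, the exception being *Fst*, and searched on both strands. For the progesterone receptor the core TGTTCT was searched, which 19% of 27025 promoters, 1 for each gene, hold. The core of Gli sites, TGGGTGGTC, was in 0.244% of them. The Stat motif TTCNNNGAA was in 8.47%, and the Gata motif AGATAA in 11.4%. None of the matches in the 7 genes overlapped another motif. The windows of the 7 genes did not hold the first 3 motifs, and AGATAA was in the windows of *Il13ra2* and *Calca*, 1 time each and on the reverse strand. The 250 bases before the gene start are shown for *Gata2*, *Lrp2*, *Npl* and *Il13ra2*, which were lower in the embryo-side library than on the morning of day 4, and for *Ihh*, which was higher, 5′ to 3′ on the strand of the gene. Capitals mark the reverse complement of AGATAA. The window of *Gata2* (chr6:88198414-88198663, plus strand) is the one at the gene start of the count table, and those of *Lrp2* (chr2:69586030-69586279), *Npl* (chr1:153549715-153549964), *Ihh* (chr1:74951673-74951922) and *Il13ra2* (chrX:147429193-147429442) are on the minus strand. That of *Il13ra2* lies 25360 bases from the gene start in the count table, whose gene model is shorter. A match or its absence describes these letters in these windows only.
Gata2: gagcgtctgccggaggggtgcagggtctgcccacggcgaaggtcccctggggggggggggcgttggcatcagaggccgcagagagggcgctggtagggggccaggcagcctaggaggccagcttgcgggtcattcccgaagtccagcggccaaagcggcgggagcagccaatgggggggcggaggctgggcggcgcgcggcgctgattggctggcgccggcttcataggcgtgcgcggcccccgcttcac
Lrp2: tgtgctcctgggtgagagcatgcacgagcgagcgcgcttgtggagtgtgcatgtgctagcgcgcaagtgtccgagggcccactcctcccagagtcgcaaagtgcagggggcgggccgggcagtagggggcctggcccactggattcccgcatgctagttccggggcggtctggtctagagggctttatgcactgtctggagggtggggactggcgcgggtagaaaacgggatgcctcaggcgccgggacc
Npl: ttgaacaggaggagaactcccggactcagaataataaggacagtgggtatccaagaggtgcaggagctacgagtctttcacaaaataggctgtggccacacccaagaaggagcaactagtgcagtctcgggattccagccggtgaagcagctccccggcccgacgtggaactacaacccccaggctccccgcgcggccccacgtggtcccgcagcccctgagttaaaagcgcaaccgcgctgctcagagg
Il13ra2: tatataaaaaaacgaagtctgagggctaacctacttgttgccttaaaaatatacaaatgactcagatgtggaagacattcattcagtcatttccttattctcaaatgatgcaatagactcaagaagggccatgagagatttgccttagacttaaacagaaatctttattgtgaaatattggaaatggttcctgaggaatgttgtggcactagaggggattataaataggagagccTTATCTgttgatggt
Ihh: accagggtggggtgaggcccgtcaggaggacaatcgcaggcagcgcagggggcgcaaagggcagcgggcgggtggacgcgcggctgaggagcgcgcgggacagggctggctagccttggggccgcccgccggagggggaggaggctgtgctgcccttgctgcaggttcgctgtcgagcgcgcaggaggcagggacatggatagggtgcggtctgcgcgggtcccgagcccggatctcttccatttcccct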

How the data were processed

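Per the series' design text, luminal layers were collected by laser microdissection, and the labels name a SMART-seq v.4 kit. Per the paper's methods and the submitters' notes, reads were aligned with HISAT2 to GRCm38/mm10 and counted by featureCounts of Subread 2.0.0. The authors deposited raw counts per gene, with gene lengths, for 23420 genes. The annotation, strand setting and handling of multi-mapped reads are not given in the sources used here. No exon of the 8 genes overlaps another gene of the table.

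Counts were read with Python 3.11.15. Genes averaging 1 CPM or more of the library total were kept, and TMM factors were computed on these genes in edgeR 4.0.16. The filter had first been applied to scaled CPM, which keeps 12916 genes with the present factors, and TMM to all genes. Both choices were changed after values had been seen and compared with earlier results of these data, which the present choices match more closely. The other choices are given as alternatives. The steps were tested on simulated data. Named were the 8 genes with all values, genes of listed pathways and cell types, and the 3 nearest profiles of each gene. Which genes of a list are named was chosen after their values were seen. The members and lists were chosen with earlier results of these data known. Older symbols were used for 5 list genes, and 1 was not matched. The names of 27 genes in the table had the form of dates and were kept. The values of 1 gene of the hedgehog list are not reported here.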

Additional observations from a re-analysis of the deposited data

How the results depend on the processing

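The numbers of genes past 2-fold were recomputed with DESeq2 1.42.0 size factors, library totals with and without Rn45s and Lars2, a smaller prior count (0.5), log2(RPKM + 1), a limit of 4-fold, and with the filter dropped or raised to a mean of 5 CPM. The filter on CPM of the library total and TMM factors from the genes kept were themselves chosen after seeing the data, in place of scaled CPM and all genes, which were then recomputed as alternatives. Also added after seeing the data were leaving out the embryo-side library, for the 3 comparisons that do not use it, the numbers for each gene list, and the settings for changes from the evening of day 4 to day 5. For the genes examined, counting both directions together, only the 4-fold limit moved a number by over 1.5 times, as a stricter limit must leave fewer: 1 gene instead of 3 from day 3 to the morning of day 4, 0 instead of 4 by the evening, and 3 instead of 5 between the day 5 libraries. The numbers over all genes kept moved more. They were, from day 3 to the morning of day 4, 1028 higher and 1420 lower, but 538 and 2209 with library totals, 441 and 723 with log2(RPKM + 1), 1757 and 2315 without the filter, 618 and 834 from 5 CPM and 154 and 520 at 4-fold. By the evening 924 and 899 became 370 and 300 with log2(RPKM + 1), 1926 and 1656 without the filter, 544 and 478 from 5 CPM and 305 and 178 at 4-fold. For the distant library 1888 and 1877 became 1167 and 1242 with log2(RPKM + 1) and 733 and 755 at 4-fold. For the embryo-side library 2698 and 2897 became 4352 and 3801 without the filter and 1356 and 1281 at 4-fold. Numbers between the day 5 libraries were 1768 and 1872, and became 1296 and 897 with log2(RPKM + 1), 3170 and 2666 without the filter, 1217 and 1225 from 5 CPM and 768 and 622 at 4-fold. Of 180 numbers over the gene lists, 47 moved by over 1.5 times with log2(RPKM + 1), 24 with library totals, 11 with library totals without Rn45s and Lars2, 5 with the smaller prior count, 2 with DESeq2 size factors and 0 with TMM factors from all genes. No member's change past 2-fold turned its sign in the settings that rescale values. Of 40 changes of single genes, 0 left their counting interval with DESeq2 size factors, 2 with TMM factors from all genes (*Npl* from day 3 to the morning of day 4, 0.93, and *Ihh* between the day 5 libraries, 1.69), 16 with library totals, 13 with library totals without Rn45s and Lars2, 14 with log2(RPKM + 1) and 0 with the smaller prior count. Library totals gave a median change over all genes kept of -0.29 from day 3 to the morning of day 4, 0.28 from there to the distant library and -0.36 between the day 5 libraries. The share of higher genes among those past 2-fold moved with them from 42% to 19.6%, from 50.1% to 65.8% and from 48.6% to 31.5%. Without Rn45s and Lars2 the medians were -0.14, 0.13 and -0.33, with shares of 28.7%, 58.7% and 32.6%, and the median was -0.18 from the morning of day 4 to the embryo-side library. With log2(RPKM + 1) the share between the day 5 libraries was 59.1%. No paired analysis was possible because each condition has 1 library. Depth limits *Calca* at 2 to 12 counts, *Ptch1* at 8 to 75, and *Il13ra2* in the embryo-side library at 6.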
